A study of Mus musculus with 62 samples.

Results

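The genes described here are the 3 small Maf genes Mafg, Maff and Mafk, the stress-response factor gene Nfe2l2 (NRF2), its inhibitor Keap1, and 5 antioxidant genes, Gclc, Gclm, Hmox1, Srxn1 and Txnrd1. They were taken from the count tables by mouse Entrez identifier, and all 10 were listed in each tissue and passed its low-count filter, out of 18821 genes listed in any tissue. Mafg was selected on its measured liver counts, which were higher in treated than in vehicle libraries, so its liver values are given as a description with no test. The other 9 genes were named as members of the same pathway. The study measured RNA by sequencing in liver, prefrontal cortex and striatum of female C57BL/6 mice given the MARBLES mixture of polychlorinated biphenyls (PCBs) by mouth. PCBs are persistent chlorinated industrial pollutants. The doses were 0 (vehicle), 0.1, 1 and 6 mg/kg. Liver had 4, 4, 6 and 6 libraries at these doses in turn, and each brain region had 4, 5, 6 and 6. All mice shared sex and strain, and the labels give no age, number of doses, vehicle composition or hour of collection. The labels number the libraries but do not say whether each came from a separate mouse, so p-values measure the spread between these libraries.

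NRF2 is a transcription factor that KEAP1 binds in the cytoplasm and marks for degradation. Oxidants and electrophiles modify KEAP1, NRF2 then accumulates in the nucleus, and it pairs with a small Maf protein to bind antioxidant response elements in DNA. Small Maf proteins have no activation domain of their own and also pair with each other or with the repressor BACH1. In liver this pathway is known for controlling glutathione synthesis and the handling of reactive foreign compounds.

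In RefSeq GRCm38.p6 the small Maf genes lie apart, Mafg on chromosome 11 from 120625117 to 120634955, Maff on chromosome 15 from 79346621 to 79359078 and Mafk on chromosome 5 from 139791536 to 139802653. The regulator genes are Nfe2l2 on chromosome 2 from 75675513 to 75704663 and Keap1 on chromosome 9 from 21229730 to 21239332. The glutathione genes are Gclc on chromosome 9 from 77754535 to 77794489 and Gclm on chromosome 3 from 122245487 to 122267215. The remaining genes are Hmox1 on chromosome 8 from 75093618 to 75100593, Srxn1 on chromosome 2 from 152105524 to 152111376 and Txnrd1 on chromosome 10 from 82833951 to 82897724. Counts are of whole genes, so no value refers to a single exon, intron or UTR.

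The sequences before the transcription start of Mafg and its relatives are shown because NRF2 and small Maf dimers act through short motifs there. RefSeq promoters (GRCm38.p6, the build that mm10 also names) were found for 8 of the 10 genes. Hmox1 and Gclc were not matched. Each was searched from 250 bases before to 50 after the start, on both strands. The first motif was the antioxidant response element core TGACNNNGC, where N is any base. It occurred in 12.4% of all 32851 promoters of this length. The 250 bases before the Mafg start, chr11:120633548-120633797 on the minus strand, held this core at -222 to -214 on the opposite strand and an E-box, CACGTG, at -41 to -36. Both are in capitals. This is the 1 Mafg start in the promoter table, and it lies inside the gene's span given above, not at its outer end.
Mafg: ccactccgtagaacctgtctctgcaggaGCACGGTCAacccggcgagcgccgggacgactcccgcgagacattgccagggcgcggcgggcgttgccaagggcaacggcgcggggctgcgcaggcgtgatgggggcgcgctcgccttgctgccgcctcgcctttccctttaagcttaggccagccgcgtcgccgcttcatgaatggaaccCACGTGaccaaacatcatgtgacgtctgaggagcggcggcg
The E-box, which clock factors and other basic helix-loop-helix proteins bind, occurred in 7.15% of promoters. Among the other members with a promoter, Nfe2l2, Gclm, Mafk, and one listed start each of Txnrd1 and Maff also held the antioxidant core before the start. These windows read along the gene's strand, with the core or its reverse complement in capitals.
Nfe2l2: gcccaccTGACTCCGCcatgcccc
Gclm: cccgggcGCACCGTCAactctcac
Mafk: cgatcccggaaGCGGTGTCAgtac
Txnrd1: gatttttGCTTTGTCAttctgaca
Maff: cgtctcaTGACTCTGCcactggaa
Srxn1 held the core only after its start, at 28 to 36. Before it lay the related small Maf heterodimer motif TGANTCAGC, at -45 to -37, which overlaps the AP-1 motif TGANTCA and occurred in 1.19% of promoters.
Srxn1: ttcacccTGAGTCAGCggccgggc
Among the 8 members searched, Srxn1 alone had TGANTCAGC or TGANTCA, the second found in 7.81% of promoters. Of the 12 member windows, E-boxes occurred in Mafg, Mafk and one window of Maff. Keap1 matched none of the 4 motifs. These matches describe letters in a window and are not evidence of binding. TGANTCAGC and TGANTCA were added after the first sequences had been read.

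Library totals, in mega-counts (M), were 7.38 to 10.2 M in liver and 8.28 to 12.1 M in the brain regions. Values are in CPM (counts for each M counts of the library), scaled within a tissue by edgeR's TMM factors, unless stated. Liver libraries carried hepatocyte markers (7 of 7 listed, summed 87800 to 189000 CPM) and few neuronal ones (4 of 4, summed 6.14 to 40.7 CPM). Striatal projection neuron markers summed to 1960 to 4890 CPM in striatum and 672 to 2150 CPM in prefrontal cortex. Cortical excitatory neuron markers summed to 1280 to 2240 CPM in prefrontal cortex and 62.4 to 1610 CPM in striatum, so some brain libraries held markers of the other region. Hepatocyte markers, 4 of 7 listed in striatum, summed to 1.85 to 4100 CPM there, and Alb, Serpina1a and Fgb were not listed. Choroid plexus markers, 4 of 4 listed, summed to 22.3 to 259 CPM in striatum. The highest sums of both lists were in the group given 1 mg/kg. The part of these marker sums in the brain results was not tested. In bulk tissue, fewer cells of a type and less RNA per cell cannot be told apart.

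In vehicle liver the glutathione genes were the most abundant members and the small Maf genes were among the least abundant. Levels between genes are compared as CPM per kb of the longest transcript, scaled jointly over the 12 vehicle libraries. Gclc, the catalytic subunit of the enzyme that starts glutathione synthesis, was at 86.3 ± 5.79 (SD, n = 4). Gclm, its modifier subunit, was at 65.1 ± 9.83 (SD, n = 4). Nfe2l2 followed at 51.6 ± 15.1, Txnrd1, the cytosolic thioredoxin reductase, at 46.3 ± 4.52 and Keap1 at 26.9 ± 4.31 CPM per kb. The sulfiredoxin gene Srxn1 had 18.5 ± 2.25, Mafg 17.6 ± 4.12 and Hmox1, the inducible haem oxygenase, 15.9 ± 3.07. Mafk had 8.39 ± 1.68 and Maff 4.51 ± 1.4 CPM per kb. The library ranges of Gclm, Nfe2l2 and Txnrd1 overlapped along this order, as did those of Srxn1, Mafg and Hmox1, and the other neighbours in the order did not overlap.

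Srxn1, not Gclc, led the order in both brain regions, and Nfe2l2 ranked below Keap1 and Txnrd1 there, whereas its mean in liver was above theirs. Srxn1 was at 31.4 ± 1.48 CPM per kb in prefrontal cortex and 29.7 ± 1.47 in striatum (SD, n = 4 each). Keap1 came next, at 20.6 ± 1.35 and 23.5 ± 1.62. Nfe2l2 was at 4.28 ± 0.643 and 4.98 ± 0.985. Mafg was the most abundant small Maf gene in every tissue, with 16.8 ± 1.12 in prefrontal cortex and 15.0 ± 2.15 in striatum. Maff was the least abundant of the 10, at 0.874 ± 0.253 and 1.0 ± 0.103 CPM per kb.

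**Figure D1:**
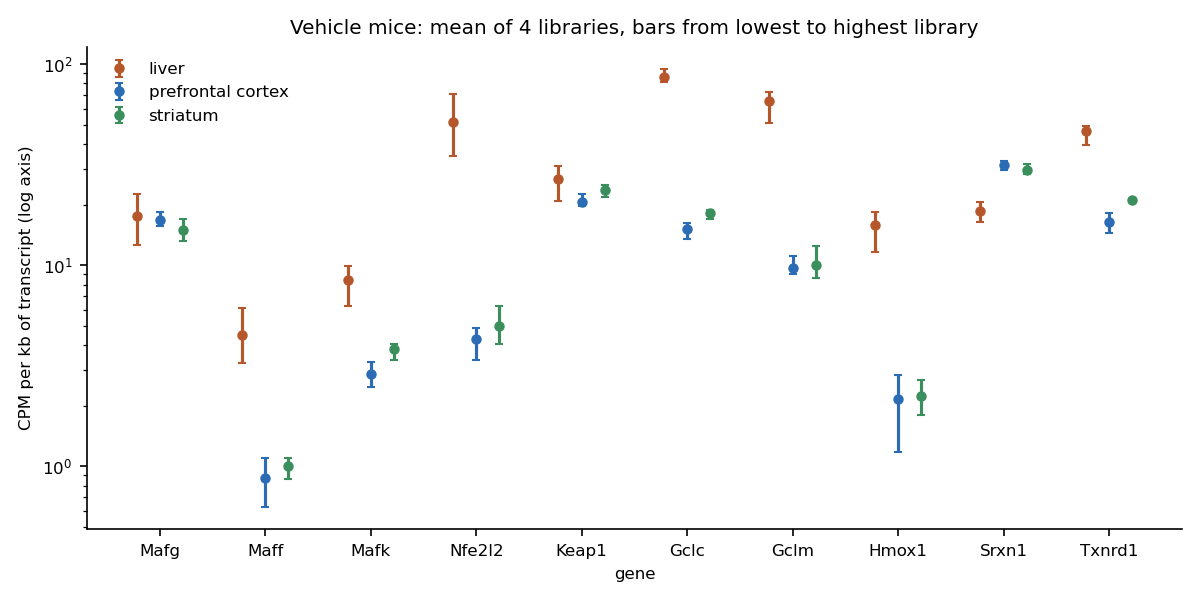
CPM per kb of transcript (log axis) for the 10 genes in vehicle liver, prefrontal cortex and striatum, as the mean of 4 libraries with bars from the lowest to the highest. Nfe2l2, Gclc, Gclm and Hmox1 lie well above brain in liver, Srxn1 lies below it, and the Mafg ranges of the 3 tissues overlap.

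Most of these genes were higher in vehicle liver than in vehicle brain. With edgeR's quasi-likelihood test and Benjamini-Hochberg adjustment over all genes, 9 of the 9 tested members differed between liver and prefrontal cortex, 8 higher in liver, where 84.9% of all genes tested differed. Nfe2l2 differed most, by 3.59 on the log2 scale (SE 0.21, adjusted p = 4.65e-11). Hmox1 was 2.89 (SE 0.25), Gclm 2.74 (SE 0.152) and Gclc 2.51 (SE 0.109) higher in liver. Maff was 2.37 higher, Mafk 1.54, Txnrd1 1.51 and Keap1 0.38 (SE 0.121, adjusted p = 0.00774). Srxn1, which reduces overoxidised peroxiredoxins, was lower in liver, with a log2 difference of -0.76 (SE 0.108, adjusted p = 4.31e-06). The median of all genes was -0.169.

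Against striatum, 8 of 9 members differed, 7 of them higher in liver, with 84.8% of all genes differing. Keap1 did not pass, at 0.2 on the log2 scale (95% interval -0.06 to 0.45, adjusted p = 0.141). It passed without vehicle replicate 8 (adjusted p = 0.0219). Mafg is described only: it differed by 0.06 from prefrontal cortex (95% interval -0.26 to 0.39) and by 0.23 from striatum (-0.09 to 0.55). These differences rest on scaling the tissues together. On values scaled within each tissue, vehicle Mafg was 49.4 CPM in liver and 93.4 in prefrontal cortex, and Keap1 was 55.5 and 84.1.

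Between the brain regions 1 of 10 members differed, where 13.5% of all genes did. Txnrd1 was 0.37 higher in striatum on the log2 scale (SE 0.108, adjusted p = 0.0308). This call was lost without vehicle replicate 3 (adjusted p = 0.222), 4 (0.13) or 7 (0.135). The other 9 differences lay between -0.17 and 0.41.

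Mafg was higher in liver at each dose than in vehicle. The vehicle libraries had 48.9, 36.3, 59.0 and 53.2 CPM. At 0.1 mg/kg they had 81.8, 80.9, 72.5 and 88.6 CPM. At 1 mg/kg the lowest, median and highest of 6 libraries were 59.4, 74.6 and 86.1 CPM. At 6 mg/kg they were 87.1, 92.4 and 124 CPM. Every treated library lay above every vehicle library at all 3 doses, by the narrowest margin at 1 mg/kg, where replicate 50 had 59.4 CPM and the highest vehicle library 59.0. The share of all genes with this pattern was 2.14%, 0.848% and 3.26% at 0.1, 1 and 6 mg/kg. The means were 49.4 ± 9.63 (SD, n = 4), 81.0 ± 6.59 (n = 4), 73.3 ± 8.92 (n = 6) and 97.1 ± 13.8 (n = 6), so the dose means did not follow the order of dose. On the log2 scale Mafg was 0.71 (SE 0.165), 0.57 (SE 0.153) and 0.98 (SE 0.155) above vehicle at 0.1, 1 and 6 mg/kg, and 0.26 (SE 0.151) higher at 6 than at 0.1 mg/kg.

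**Figure D2:**
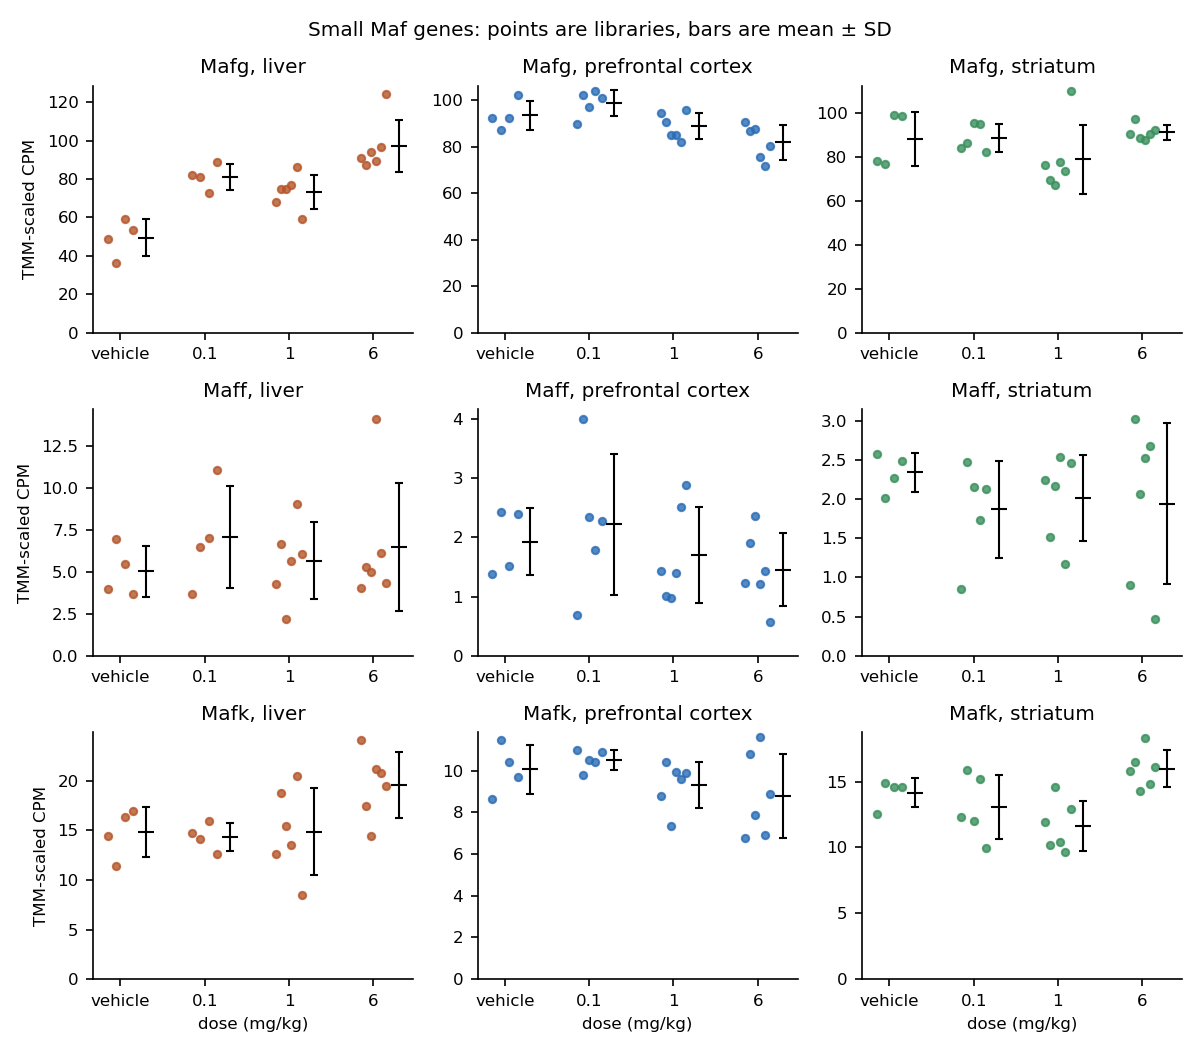
TMM-scaled CPM of Mafg, Maff and Mafk (rows) by dose in mg/kg in liver, prefrontal cortex and striatum (columns). Points are libraries and bars the mean ± SD. Liver Mafg runs from 36.3 to 59.0 CPM in vehicle and from 59.4 to 124 CPM in treated libraries, whereas the treated and vehicle points overlap in every other panel.

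Some circadian clock genes also differed between treated and vehicle liver. A clock index, log2 CPM of Dbp minus log2 CPM of Arntl, was 2.04, 2.49, 5.19 and 5.45 in the vehicle libraries. It ran from 6.17 to 7.98, 5.76 to 8.6 and 6.58 to 8.48 in the groups given 0.1, 1 and 6 mg/kg, so here too every treated liver lay above every vehicle liver. Of 15 clock genes tested, 4 rose (Tef, Per3, Dbp and Ciart) and 1 fell (Arntl) at 6 mg/kg with edgeR's test, where 2.8% of all genes passed, and DESeq2 called 7, where it called 9.72% of all genes with an adjusted p. At 1 mg/kg 0 of 15 passed with edgeR (0.0% of all genes), 6 had an unadjusted p under 0.05 (8.44% of all genes) and DESeq2 called 1 (0.197%). At 0.1 mg/kg these were 0 (0.0154%), 7 (4.1%) and 4 (0.0944%). At 6 mg/kg Per3 rose by 2.09 (SE 0.387, adjusted p = 0.0134) and Tef by 1.42 (SE 0.256, adjusted p = 0.013) on the log2 scale, and each passed in 12 of 16 alternative analyses. With the clock index as a covariate, the Mafg differences at 6, 1 and 0.1 mg/kg were 0.68 (SE 0.238), 0.29 (SE 0.229) and 0.49 (SE 0.213). Dose and clock state cannot be told apart where the index ranges do not overlap. In prefrontal cortex the index was 0.71 to 1.83 in vehicle and 1.15 to 2.17 in treated libraries, and in striatum 1.89 to 2.83 and 1.64 to 3.62, so the ranges overlapped in both.

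**Figure D3:**
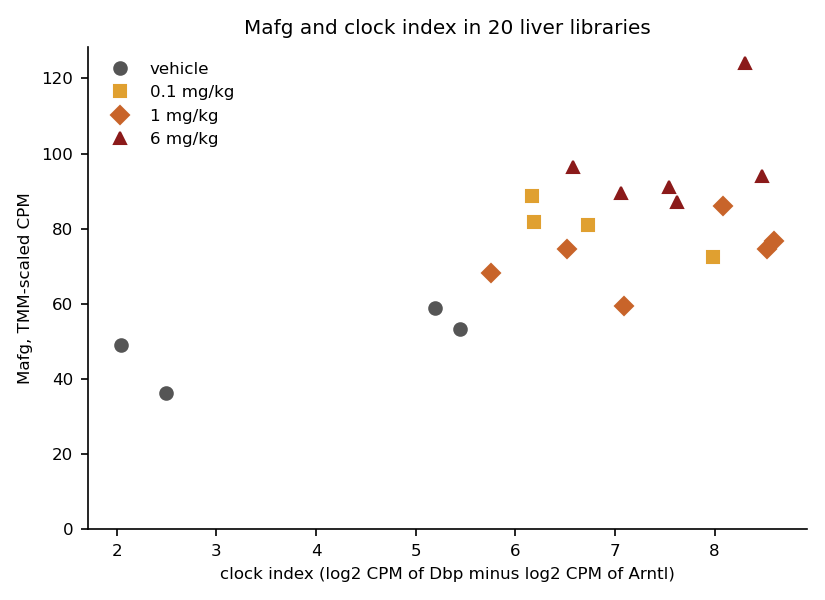
Mafg (TMM-scaled CPM) against the clock index (log2 CPM of Dbp minus log2 CPM of Arntl) in the 20 liver libraries, marked by dose. The 4 vehicle libraries, with an index of 2.04 to 5.45, lie to the left of and below all treated libraries.

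Kupffer cell markers, 5 of 5 listed, summed to 117 to 197 CPM in vehicle liver. In the groups given 0.1, 1 and 6 mg/kg they summed to 200 to 280, 172 to 338 and 162 to 336 CPM. The vehicle range thus lay below that of 0.1 mg/kg and overlapped those of 1 and 6 mg/kg. The microglia list, 4 of 4 listed, includes genes that other macrophages express. It summed to 36.4 to 47.1 CPM in vehicle liver and to 62.8 to 67.0, 34.5 to 105 and 51.6 to 99.5 CPM at the rising doses, so the vehicle range lay below those of 0.1 and 6 mg/kg. Stellate cell markers, 4 of 4 listed, had medians of 302 CPM in vehicle and 190 CPM at 6 mg/kg, with overlapping ranges of 240 to 376 and 138 to 332 CPM. Replicate 58 at 6 mg/kg had both the highest Mafg of all livers, 124 CPM, and a Kupffer sum of 336 CPM. At the same dose replicates 56 and 52 had Kupffer sums of 334 and 162 CPM and Mafg within 87.1 to 96.4 CPM. Replicate 42 at 1 mg/kg had the highest Kupffer sum of all livers, 338 CPM, and Mafg of no more than 86.1 CPM. Without replicate 58 the Mafg difference was 0.89 (SE 0.148). The part of these cell types in the Mafg difference was not tested. The gene Sirt7, a sirtuin, lies 102 bases from Mafg in RefSeq on chromosome 11 and overlaps it by 124 bases in GENCODE vM21. Its liver means were 45.7 ± 10.7, 67.4 ± 15.8, 62.0 ± 8.77 and 85.5 ± 34.8 CPM from vehicle to 6 mg/kg (SD, n = 4, 4, 6 and 6). How reads in the overlap were assigned is not given in the sources used here.

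The genes whose liver pattern was most like Mafg over the 20 libraries were Ngef (Pearson r = 0.90), the clock gene Per3 (0.89), Themis2 (0.88), Cntrob (0.86) and the clock-controlled factor Tef (0.85). After dose group means were subtracted, the closest were Wdcp (0.81), Cntrob (0.79), Pabpn1 (0.79), Themis2 (0.77) and Polk (0.77). Of the other members, Mafk (0.53 before and after) and Nfe2l2 (0.49 before and 0.57 after) came nearest. The antioxidant genes ranged from -0.28 for Gclm to 0.21 for Gclc before the subtraction. These are descriptions over libraries, and the genes share each library's depth and base composition.

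None of the other 9 members passed the test in liver at any dose. At 6 mg/kg 0 of 9 passed, and 0 of 9 had an unadjusted p under 0.05, with edgeR's quasi-likelihood test, where 2.8% of all genes passed and 24.2% had such an unadjusted p. DESeq2 also called 0 of 9, where it called 9.72% of all genes with an adjusted p. Of the log2 differences 7 were positive and 2 negative, with a median of 0.25 against 0.023 for all genes. Their adjusted p ran from 0.224 to 0.921 and their 95% intervals together spanned -0.49 to 1.15. At 1 mg/kg 0 of 9 passed (0.0% of all genes) and at 0.1 mg/kg 0 of 9 (0.0154% of all genes). At both, 0 had an unadjusted p under 0.05 (8.44% and 4.1% of all genes in turn). DESeq2 called 0 at both, and 0.197% and 0.0944% of all genes with an adjusted p. None of the 9 had all its treated libraries above, or all below, every vehicle library at any dose; 1.99%, 0.74% and 3.5% of all genes lay wholly below vehicle at 0.1, 1 and 6 mg/kg.

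The other small Maf genes were at or above their vehicle levels at 6 mg/kg without passing. Mafk had 14.4, 11.4, 16.4 and 17.0 CPM in vehicle liver. Its lowest, median and highest values at 6 mg/kg were 14.4, 20.1 and 24.1 CPM, and 5 of the 6 libraries lay above the vehicle range. The log2 difference was 0.41 (95% interval -0.02 to 0.83, adjusted p = 0.224), and 0.06 (SE 0.317) with the clock index as covariate. Maff had 3.97, 6.98, 5.49 and 3.69 CPM in vehicle and 4.07, 5.15 and 14.1 CPM (lowest, median, highest) at 6 mg/kg. Replicate 55 set the highest value. Without it the difference of 0.36 (95% interval -0.42 to 1.15) was -0.02.

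Neither Nfe2l2 nor Keap1 passed in liver at any dose. Nfe2l2 had 69.4, 50.2, 93.5 and 76.9 CPM in vehicle liver. At 6 mg/kg the lowest, median and highest were 56.1, 109 and 126 CPM. There, 4 libraries had 101 CPM or more, and replicates 55 and 56 had 57.4 and 56.1 CPM, within the vehicle range. The log2 difference was 0.42 (95% interval -0.12 to 0.95, adjusted p = 0.321), and -0.22 (SE 0.401) with the clock index as covariate. With this covariate Maff was at 0.36, Keap1 0.09, Gclc 0.27, Gclm 0.11, Hmox1 0.7, Srxn1 0.24 and Txnrd1 0.16 at 6 mg/kg. Their SEs ran from 0.249 to 0.64. Keap1 had 61.6, 57.0, 59.9 and 43.6 CPM in vehicle and 40.4, 59.0 and 65.5 CPM at 6 mg/kg. Its log2 difference was 0.03 (95% interval -0.32 to 0.39), and at 0.1 mg/kg it was -0.35 (95% interval -0.74 to 0.04, adjusted p = 0.994).

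No antioxidant gene passed in liver at any dose, and at 6 mg/kg their differences had both signs. They were not tested as a group. Gclc had 193, 168, 148 and 169 CPM in vehicle and 134, 203 and 245 CPM (lowest, median, highest) at 6 mg/kg, with a log2 difference of 0.19 (95% interval -0.3 to 0.67). Gclm had 243, 219, 151 and 224 CPM in vehicle and 153, 173 and 266 CPM at 6 mg/kg, with a difference of -0.1 (-0.49 to 0.3). The treated and vehicle ranges of both subunits overlapped. Srxn1 had 27.6, 33.7, 30.6 and 27.2 CPM in vehicle and 25.8, 36.1 and 46.7 CPM at 6 mg/kg, a difference of 0.26 (-0.13 to 0.66). Against 0.1 mg/kg, where it had 25.9, 20.5, 29.6 and 23.1 CPM, it was 0.53 higher at 6 mg/kg (SE 0.194, unadjusted p = 0.0127, adjusted p = 0.276). Srxn1 was 1 of 3 members with an unadjusted p under 0.05 in that comparison (12.8% of all genes), beside Mafk and Keap1. There 0 of 9 passed with edgeR (0.0386% of all genes) and 0 with DESeq2 (1.2% of genes with an adjusted p). Txnrd1 had 103, 104, 94.3 and 82.8 CPM in vehicle and 79.9, 87.5 and 100 CPM at 6 mg/kg, a difference of -0.12 (-0.44 to 0.21).

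At the lower doses none of these 9 genes passed the test in liver. Maff had 3.67, 6.51, 7.04 and 11.1 CPM at 0.1 mg/kg and, as lowest, median and highest, 2.21, 5.87 and 9.03 CPM at 1 mg/kg. For Mafk the libraries given 0.1 mg/kg had 14.7, 14.1, 15.9 and 12.6 CPM, and those given 1 mg/kg 8.45, 14.4 and 20.5 CPM in the same order. Neither small Maf gene left the vehicle range as a group. Nfe2l2 had 83.4, 92.8, 59.7 and 77.4 CPM at 0.1 mg/kg and 47.7, 55.8 and 104 CPM at 1 mg/kg. Keap1 had 35.0, 43.4, 57.6 and 38.2 CPM at 0.1 mg/kg, with 3 of 4 libraries under the lowest vehicle library, and 42.8, 56.8 and 67.4 CPM at 1 mg/kg. The regulators thus overlapped vehicle at both doses. Gclc had 172, 204, 153 and 232 CPM at 0.1 mg/kg and 122, 127 and 282 CPM at 1 mg/kg. Gclm had 174, 198, 198 and 246 CPM and 137, 199 and 228 CPM in these groups. Both glutathione genes had treated libraries on either side of the vehicle mean. Hmox1 had 16.7, 11.0, 18.6 and 12 CPM at 0.1 mg/kg and 9.92, 13.9 and 16.8 CPM at 1 mg/kg. Srxn1 at 1 mg/kg had 22.6, 30.3 and 48.9 CPM. Txnrd1 had 79.3, 67.6, 94.4 and 101 CPM at 0.1 mg/kg and 68.1, 78.5 and 117 CPM at 1 mg/kg. The log2 differences of the 9 genes from vehicle lay between -0.35 and 0.49 at 0.1 mg/kg and between -0.19 and 0.17 at 1 mg/kg.

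Hmox1, which degrades haem, depended on one library. Its vehicle values were 16.8, 10.6, 15.3 and 14.4 CPM, and at 6 mg/kg the lowest, median and highest were 7.2, 12.9 and 41.3 CPM. The log2 difference of 0.25 (95% interval -0.49 to 0.99, adjusted p = 0.698) became -0.25 (SE 0.258) without replicate 56, which held the 41.3 CPM. That library had a Kupffer marker sum of 334 CPM, the next to highest at 6 mg/kg. Replicate 58, with the highest sum at this dose, 336 CPM, had Hmox1 within the 7.2 to 19.5 CPM of the other libraries. The part of Kupffer cells in the Hmox1 level of replicate 56 was not tested.

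**Figure D4:**
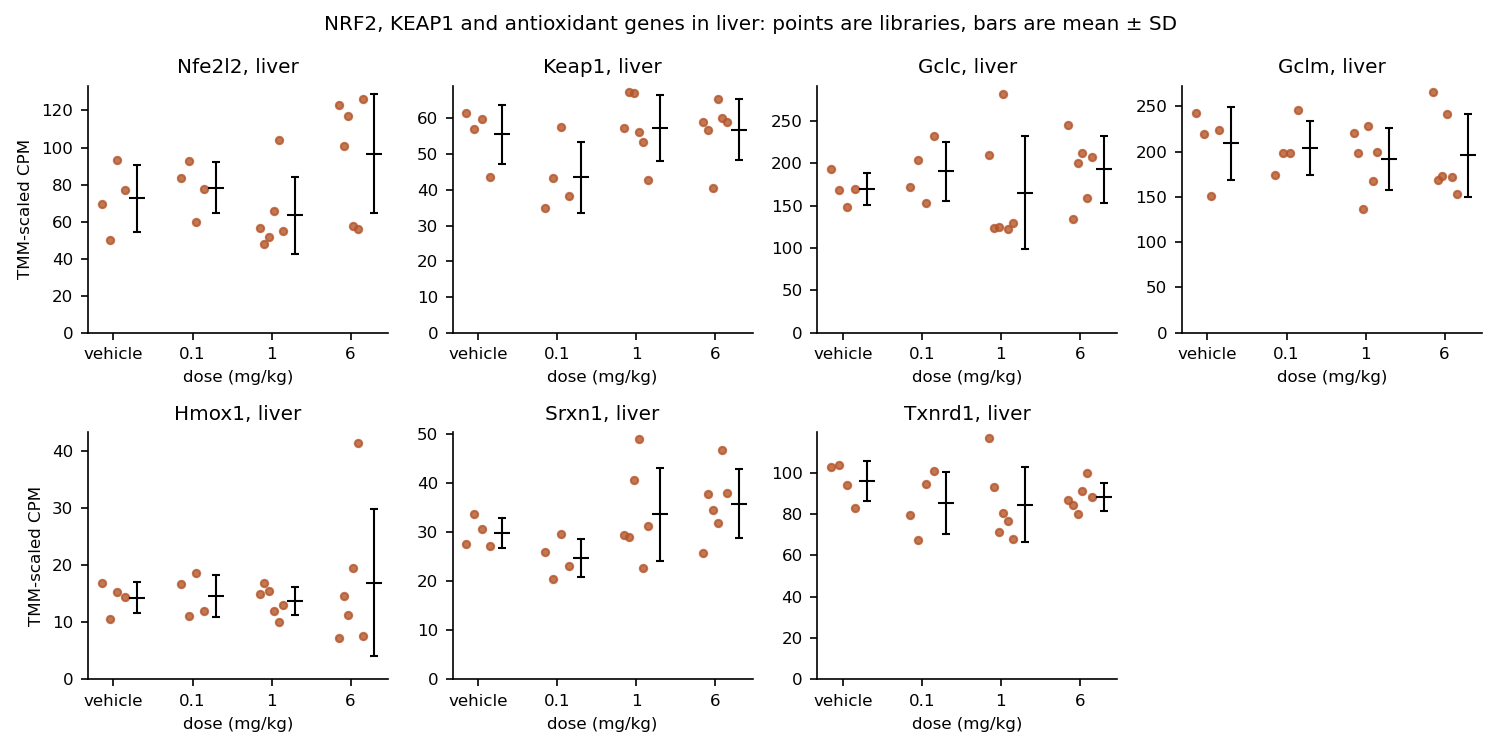
TMM-scaled CPM of Nfe2l2, Keap1, Gclc, Gclm, Hmox1, Srxn1 and Txnrd1 in liver by dose in mg/kg. Points are libraries and bars the mean ± SD. Treated and vehicle libraries overlap in every panel, and the single high Hmox1 point at 6 mg/kg is replicate 56 at 41.3 CPM.

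Over ranked dose (vehicle, 0.1, 1 and 6 mg/kg as equal steps) 0 of 9 liver members passed with edgeR, where 4.81% of all genes did. DESeq2 called 0 of 9, and 11.6% of all genes with an adjusted p. With edgeR Mafk had the smallest p, with a slope of 0.14 per step on the log2 scale (SE 0.0634, unadjusted p = 0.0394, adjusted p = 0.174). Of all genes 25.4% had an unadjusted p under 0.05 with that test. The slope of Mafg was 0.27 per step (SE 0.0561), as a description.

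In prefrontal cortex Mafg did not pass against vehicle at any dose. The vehicle libraries had 92.3, 87.1, 92.3 and 102 CPM, and those at 0.1 mg/kg 89.7, 102, 97.2, 104 and 101 CPM. The lowest, median and highest were 82.0, 87.8 and 95.8 CPM at 1 mg/kg and 71.5, 83.4 and 90.7 CPM at 6 mg/kg. All 6 libraries at 6 mg/kg lay below the vehicle mean of 93.4 CPM, and 4 of them below the lowest vehicle library. The log2 difference from vehicle was -0.19 (SE 0.0799, unadjusted p = 0.026, adjusted p = 0.468). Against 0.1 mg/kg it was -0.27 (SE 0.075), which missed the threshold with edgeR's test (adjusted p = 0.165) and passed with DESeq2's Wald test (adjusted p = 0.0403), as did 1.08% of all genes with an adjusted p from DESeq2. Over all alternative analyses the adjusted p ran from 0.0403 to 0.443. Of all genes 0.108% passed that comparison with edgeR.

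No member passed any dose comparison in the prefrontal cortex with edgeR's test. Against vehicle 0 of 10 passed at 0.1, 1 and 6 mg/kg, where 0.0% of all genes did, and 0, 0 and 1 had an unadjusted p under 0.05, as did 6.43%, 8.29% and 9.27% of all genes. DESeq2 called 0 of 10 in each, and 0.00674%, 0% and 0.179% of all genes with an adjusted p. Over ranked dose 0 of 10 passed (0.0202% of all genes), with 1 unadjusted (9.79% of all genes) and 0 by DESeq2 (0.669% of genes with an adjusted p). Mafg was at -0.08 per step (SE 0.0263, adjusted p = 0.29). No member lay wholly above vehicle at any dose (0.923%, 1.06% and 1.19% of all genes at 0.1, 1 and 6 mg/kg) or wholly below it (1.14%, 1.27% and 1.92%). Against 0.1 mg/kg, 4 of 10 reached an unadjusted p below 0.05 at 6 mg/kg, as did 10.1% of all genes, and 8 of 10 differences were negative, with a median of -0.18 against 0.002 for all genes. Beside Mafg these were Hmox1 at -0.56 (SE 0.218), Keap1 at -0.2 (SE 0.0905) and Srxn1 at -0.17 (SE 0.0723), with adjusted p from 0.377 to 0.447. Hmox1 had 3.6, 5.82, 6.89, 6.06 and 3.65 CPM at 0.1 mg/kg and 2.41, 3.71 and 4.37 CPM (lowest, median, highest) at 6 mg/kg. Those ranges overlapped.

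None of the other members in prefrontal cortex passed at the highest dose. Maff had the largest difference: its vehicle mean was 1.93 ± 0.557 CPM (SD, n = 4) and its mean at this dose 1.45 ± 0.617 CPM (SD, n = 6), a log2 difference of -0.41 with a 95% interval of -1.24 to 0.42. Mafk ranged from 8.65 to 11.5 CPM in vehicle, and its mean at the highest dose was 8.8 ± 2.02 CPM (SD, n = 6). Vehicle Nfe2l2 was 11.9 ± 1.8 CPM (SD, n = 4), and 11.0 ± 2.01 CPM after 6 mg/kg. Keap1 had 84.1 ± 5.41 CPM in vehicle and 74.1 ± 10.7 CPM at 6 mg/kg. The intervals of the log2 differences of Mafk, Nfe2l2 and Keap1 included 0. Gclc had 58.3 ± 4.77 CPM in vehicle and 59.9 ± 7.52 CPM at 6 mg/kg. Gclm had 61.2 ± 6.17 CPM in vehicle and 66.1 ± 7.98 CPM at 6 mg/kg. Srxn1 had 99.6 ± 4.91 CPM in vehicle and 97.1 ± 7.64 CPM at 6 mg/kg. Gclc and Gclm were the 2 members with a positive difference, at 0.04 and 0.11 on the log2 scale. Txnrd1 had 66.3 ± 6.23 CPM in vehicle and 63.1 ± 4.67 CPM at 6 mg/kg.

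In striatum the treated and vehicle ranges of every member overlapped at 6 mg/kg, and at 1 mg/kg several members had lower values without passing. Mafg had 78.3, 77.0, 99.0 and 98.9 CPM in vehicle and 87.6, 90.5 and 97.1 CPM (lowest, median, highest) at 6 mg/kg, a log2 difference of 0.05 (95% interval -0.19 to 0.28). At 1 mg/kg 5 of 6 Mafg libraries had 67.2 to 77.6 CPM and replicate 50 had 110 CPM. Txnrd1 had 93.4, 91.9, 89.5 and 88.6 CPM in vehicle and 70.8, 83.3 and 86.7 CPM at 1 mg/kg. It was the only member below every vehicle library at a dose in either brain region, a pattern that 0.423% of all genes showed, against 0.503% and 1.91% for the doses of 0.1 and 6 mg/kg. No member lay wholly above vehicle in striatum, where 0.807%, 0.456% and 1.67% of all genes did at 0.1, 1 and 6 mg/kg. Its log2 difference was -0.17 (SE 0.0764, unadjusted p = 0.0344, adjusted p = 0.675). Mafk (-0.29, SE 0.137) and Keap1 (-0.22, SE 0.0997) also had an unadjusted p under 0.05 at this dose and an adjusted p of 0.675. With edgeR 0 of 10 passed against vehicle at each dose (0.0% of all genes), with 0, 3 and 0 unadjusted at 0.1, 1 and 6 mg/kg, where 2.53%, 7.36% and 15.7% of all genes were. DESeq2 also called 0 at each dose, and 0.00661%, 0.0331% and 0.209% of all genes with an adjusted p. Over ranked dose 0 of 10 passed (0.0% of all genes), with 0 unadjusted (13.1% of all genes) and 0 by DESeq2 (0.168% of genes with an adjusted p). Against 0.1 mg/kg 0 of 10 passed at 6 mg/kg with edgeR, where 2.91% of all genes did. DESeq2 called 0 of 10 there, and 8.85% of all genes with an adjusted p. Mafk was the 1 member with an unadjusted p under 0.05 there by edgeR, as 22.3% of all genes had. It was at 0.29 (SE 0.129, adjusted p = 0.183).

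The other striatal members did not pass at 6 mg/kg, although for Mafk 4 of 6 libraries lay above the highest vehicle library and for Keap1 3 of 6 did. Mafk had 14.2 ± 1.1 CPM in vehicle (SD, n = 4) and 16.0 ± 1.4 CPM (SD, n = 6) when treated. Nfe2l2 had 14.7 ± 2.91 CPM in vehicle and 13.6 ± 1.31 CPM at 6 mg/kg. Keap1 had 101 ± 6.75 CPM in vehicle and 107 ± 6.35 CPM at 6 mg/kg. The log2 differences of these regulators were -0.11 for Nfe2l2 and 0.07 for Keap1. Gclc had 74.0 ± 3.05 CPM in vehicle and 71.8 ± 8.57 CPM at 6 mg/kg. Gclm had 66.9 ± 11.7 CPM in vehicle and 63.2 ± 4.03 CPM at 6 mg/kg. Hmox1 had 4.16 ± 0.701 CPM in vehicle and 4.42 ± 1.17 CPM at 6 mg/kg. The 95% intervals of the striatal members together spanned -1.01 to 0.55. Srxn1 had 99.8 ± 5.2 CPM in vehicle and 95.8 ± 4.38 CPM at 6 mg/kg. Maff had 2.34 ± 0.249 CPM in vehicle and 1.94 ± 1.03 CPM at 6 mg/kg, a log2 difference of -0.26 (95% interval -1.01 to 0.48).

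**Figure D5:**
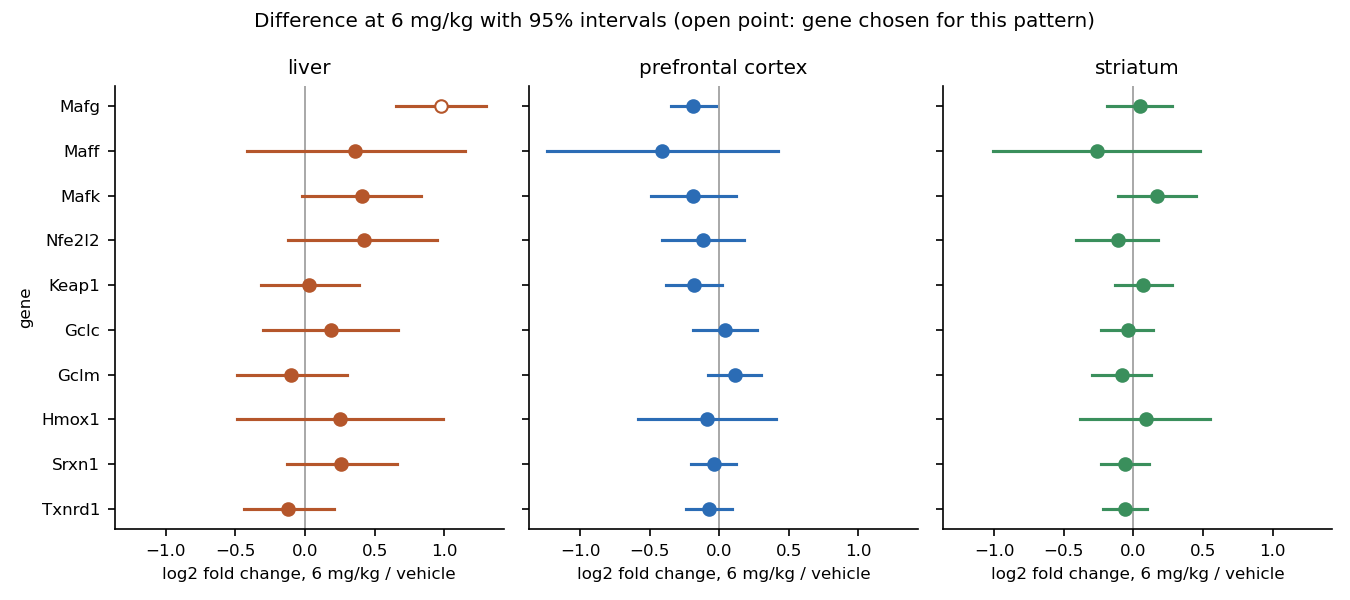
Log2 fold change at 6 mg/kg over vehicle with 95% intervals for the 10 genes in liver, prefrontal cortex and striatum. The open point, Mafg in liver at 0.98, was chosen for this pattern and is not a test. All other intervals include 0 except that of Mafg in prefrontal cortex, at -0.19 (-0.35 to -0.02), which did not pass the adjusted threshold.

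The 6 mg/kg effect was also compared between tissues. Liver minus prefrontal cortex, 0 of 9 members passed, where 0.899% of all genes did, and liver minus striatum 0 of 9, where 0.0277% did. DESeq2 called 0 of 9 in both. Mafk had the smallest p, with an effect 0.58 larger in liver than in prefrontal cortex on the log2 scale (SE 0.254, unadjusted p = 0.0324, adjusted p = 0.21). It was the 1 member with an unadjusted p under 0.05 against prefrontal cortex (20% of all genes), and 0 had one against striatum (14.3%). Mafg is described only, with an effect 1.15 (SE 0.19) larger in liver than in prefrontal cortex and 0.92 (SE 0.196) larger than in striatum.

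Other genes of the pathway were followed as 7 lists of NRF2 partners, large Maf factors, glutathione and thioredoxin enzymes, NADPH supply, detoxification, iron and haem, and other antioxidant enzymes, 88 genes in all. In liver at 6 mg/kg 1 of 81 tested rose and 0 fell with edgeR, where 2.8% of all genes passed, and DESeq2 called 5 of the 81, where it called 9.72% of all genes with an adjusted p. The median log2 difference was -0.12 against 0.023 for all genes. The gene that rose was Abcc3, which exports conjugated bile acids and drug metabolites. It went from 107 ± 12.8 CPM in vehicle (SD, n = 4) to 226 ± 67.2 (SD, n = 6), by 1.07 on the log2 scale (SE 0.238, adjusted p = 0.0244 with edgeR). It stayed between 0.9 and 1.24 in 16 alternative analyses and passed in 7 of them, with adjusted p from 0.00081 to 1. By list, 0 of 13 partners, 0 of 2 large Maf factors, 0 of 20 glutathione and thioredoxin enzymes, 0 of 6 NADPH genes, 0 of 9 iron and haem genes and 0 of 6 other antioxidant genes passed, beside 1 of 25 detoxification genes. The unadjusted p was under 0.05 for 16 of the 81, and for 24.2% of all genes. At 1 and 0.1 mg/kg 0 of 81 passed with edgeR or DESeq2, with 5 and 2 unadjusted (8.44% and 4.1% of all genes).

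In prefrontal cortex 0 of 75 pathway genes passed at any dose against vehicle with edgeR or DESeq2, with 6, 4 and 8 unadjusted at 0.1, 1 and 6 mg/kg (6.43%, 8.29% and 9.27% of all genes). The glutaredoxin gene Glrx, at 0.35 (SE 0.111, adjusted p = 0.347), had the smallest p of these at 6 mg/kg. In striatum 0 of 77 passed against vehicle with edgeR or DESeq2, with 3, 5 and 9 unadjusted (2.53%, 7.36% and 15.7% of all genes). Slc7a11, the cystine importer that feeds glutathione synthesis, was at -0.55 at 6 mg/kg (SE 0.16, adjusted p = 0.208). Against 0.1 mg/kg 2 of 77 striatal genes rose at 6 mg/kg with edgeR, a share near the 2.91% of all genes called there, and DESeq2 called 4, where it called 8.85% of all genes with an adjusted p. They were Slc48a1, a haem transporter, by 0.42 (SE 0.0939, adjusted p = 0.0324), and Sod3, the extracellular superoxide dismutase, by 0.51 (SE 0.134, adjusted p = 0.04). The clock gene Dbp rose in the same comparison by 0.54 (SE 0.148, adjusted p = 0.0461). Of 17 alternative analyses, Slc48a1 passed in 10, Sod3 in 7 and Dbp in 4. The 440 genes called there fell to 0 without 0.1 mg/kg replicate 29, and to 0 with the clock index as covariate.

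Correlations between members were computed over the libraries of each tissue, and no difference between tissues was tested. Gclc and Gclm correlated over libraries at r = 0.60 in liver, 0.61 in prefrontal cortex and 0.48 in striatum (n = 20, 21 and 21), and at 0.64, 0.63 and 0.39 after dose group means were subtracted. For Nfe2l2 and Hmox1 the values before and after this subtraction were -0.59 and -0.70 in liver, 0.30 and 0.26 in prefrontal cortex, and -0.14 and -0.12 in striatum. Mafg and Keap1 had 0.76 and 0.66 in striatum, 0.41 and 0.14 in prefrontal cortex, and -0.05 and 0.0 in liver. Mafg and Gclm had -0.77 and -0.72 in striatum, -0.27 and -0.15 in prefrontal cortex, and -0.28 and -0.38 in liver. Mafg and Gclm also differ in base composition, with 54.9% and 42.1% GC in their transcripts. All r values describe libraries that share depth and scaling.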

How the data were processed

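The authors deposited raw counts per gene, by Entrez identifier, in 1 table per tissue for 62 libraries. FastQC, HISAT2 and build mm10 are named per the submitters' processing notes. The counting program, annotation and strand are not given in the sources used here, and the labels' protocol names poly(A) capture or rRNA removal without saying which. Gene symbols, loci and promoters came from RefSeq GRCm38.p6, and transcript length and GC content from GENCODE vM21. Low counts were removed with filterByExpr, libraries were scaled by TMM, and each tissue had 1 edgeR 4.0.16 quasi-likelihood fit over its 4 doses (R 4.3.3), with Benjamini-Hochberg adjustment over all genes and a threshold of 0.05. Vehicle tissues were compared in 1 joint fit, and the 6 mg/kg effects in pairs of tissues. The fits were tested on simulated data. Alternatives were DESeq2 1.42.0, median-ratio scaling, no filter, a GC and length offset, the clock index as covariate, 2 groups only, slope over mg/kg, a replicate block and each library left out. The members and lists were chosen with earlier results of these data known. Every member is named. From the lists, each dose comparison allows up to 5 passing genes with the smallest p, or up to 2 where none passes, and the 5 genes most correlated with Mafg in liver are named. Replicate libraries differed by more than sampling noise (smallest chi-square per degree of freedom 2.94).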

Additional observations from a re-analysis of the deposited data

Results flagged for a closer look

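Across 120 sets of a gene, tissue and dose, 8 had 1 library far from the rest, where chance gives about 6. In liver at 6 mg/kg, replicate 58 had 124 CPM of Mafg (the others 87.1 to 96.4), replicate 55 had 14.1 CPM of Maff (4.07 to 6.11), replicate 54 had 40.4 CPM of Keap1 (56.9 to 65.5) and replicate 56 had 41.3 CPM of Hmox1 (7.2 to 19.5). In liver at 1 mg/kg, replicate 48 had 104 CPM of Nfe2l2 (47.7 to 65.5). In striatum, replicate 50 at 1 mg/kg had 110 CPM of Mafg (67.2 to 77.6), and vehicle replicate 3 had 12.5 CPM of Mafk (14.6 to 14.9). In prefrontal cortex at 1 mg/kg, replicate 45 had 100 CPM of Keap1 (82.8 to 87.5).

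At 6 mg/kg all 6 livers lay above the vehicle mean of Mafg (mean 97.1 CPM) and all 6 prefrontal cortex libraries below theirs (mean 82.0 CPM). This difference between tissues was not tested, because Mafg was chosen for its liver pattern.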

How the results depend on the processing

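The number of members that passed changed in 3 comparisons. For prefrontal cortex at 6 against 0.1 mg/kg it went from 0 to 1, Mafg, with DESeq2. For vehicle striatum against prefrontal cortex it went from 1, Txnrd1, to 0 with the replicate number as a block (adjusted p = 0.0567), and leaving out each vehicle replicate gave 0 to 1. The cause was not tested. The labels do not say what a shared number marks. The correlation of same-numbered deviations exceeded 0.1 in 12 of 21 striatum and prefrontal cortex pairs, and 11 of 21 libraries correlated best with their own number, as did 8 of 20 for liver with striatum and 4 of 20 for liver with prefrontal cortex. This is a hint of pairing from the data, not the design. The block changed no other member's call, and took the count of all genes in the liver and prefrontal cortex interaction from 129 to 2. For vehicle liver against striatum it went from 8 to 9, with Keap1, without vehicle replicate 8. No member's call reversed. The ranked-dose slope of Arntl in liver, -0.66, was 0.04 with the clock index as covariate, an index computed from Arntl and Dbp.

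Counts over all genes were less stable. For liver at 6 mg/kg, 363 genes passed, from 3 (without vehicle replicate 4) to 1302 (without 6 mg/kg replicate 56) when each of the 10 libraries was left out, and each moved it by over 1.5 times. The count was 0 with the clock index, 1138 with DESeq2, 13 with the 2 groups only and 131 with the GC and length offset. The ranked-dose count of 624 ran from 3 to 1317, the prefrontal cortex count of 16 at 6 against 0.1 mg/kg from 0 to 129, the striatum count of 440 from 0 to 1104, the vehicle brain count of 1916 from 754 to 2613 and the interaction count of 129 from 2 to 938. Mafg in liver at 6 mg/kg stayed between 0.68 and 1.08. Maff had 4 to 37 counts per brain library, which limits its precision.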
